A study of Mus musculus with 9 samples.

Results

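The genes described here are 38 precursors of neuropeptides and granins outside the opioid family, chosen by name as the rows of the deposited table that carry one of 38 listed gene symbols, of 22192 genes in all. The tissue was brain from male mice of the outbred KM stock. The young group was 5 months old and received physiological saline by mouth, the aged group was 18 months old and received the same saline, and the treated group was 18 months old and received GRP-E1F2 by gavage at 200 mg/kg, a fraction of the polysaccharides of ginseng root. All groups were dosed every 2 days for 4 weeks, and each held 3 libraries, numbered as parallel samples. Whether these were separate animals is not stated, and p-values here measure only the spread between libraries, which may be technical. No genotype, transgene or disease model is named in the labels.

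Neuropeptides are made as longer precursors that enter the secretory pathway, are cut by prohormone convertases and trimmed and amidated by further enzymes, and are stored in large dense-core vesicles until activity releases them. Granins are acidic proteins of the same vesicles, which help to form them and are themselves cut into peptides. Most neuropeptide genes are confined to particular neurons: somatostatin, neuropeptide Y, cholecystokinin and VIP to interneurons and other forebrain neurons, vasopressin, oxytocin, orexin and melanin-concentrating hormone to hypothalamic nuclei, and neuropeptide S to a few brainstem nuclei. Their level in a piece of brain therefore depends on which regions the piece contains.

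The values are TPM, a length-scaled share of the transcripts in a library, which keep no record of sequencing depth. In bulk tissue, fewer cells of a type and less RNA per cell cannot be told apart. Young library 3, aged library 2 and treated library 3 stood apart from the other 6: each had a value between those of its group's other libraries at 89.2%, 91.5% and 91.8% of the genes whose other values differed at least 1.3-fold, against 19.2% to 30.5% for the rest. Among the peptide and granin genes whose other values differed at all, with no limit on fold or level, these libraries lay between at 29 of 38, 37 and 37. The other 6 libraries lay between at 3 to 6 of the members so compared. Each call on a member is therefore also given from 2 libraries per group, without young library 3, aged library 2 and treated library 3. Such a fit has fewer samples and keeps the libraries that lay farther apart. A call lost in it therefore does not show that a change was absent. Brain genes were abundant, with Snap25 of synapses at 2448 to 3573 TPM, while only 3 of 13 retinal marker genes averaged 1 TPM or more, although the extraction protocol speaks of retina. Regional markers differed between groups: the summed level of 12 cerebellar genes was 3265 to 4732 TPM in the young, 1977 to 2375 TPM in the aged and 139.6 to 149 TPM in the treated libraries. The sum of 10 striatal genes was 245 to 887, 882 to 1252 and 655 to 1829 TPM. That of 10 genes listed for neocortical excitatory neurons was 471 to 573, 699.7 to 769 and 588 to 1074 TPM. Most of it was Slc17a7, at 359 to 436, 523 to 547 and 447 to 782 TPM. In the same list Tbr1 was 3.92 to 11.98, 18.8 to 25.7 and 21.2 to 39.6 TPM. Emx1 was 3.51 to 8.86, 16.0 to 17.2 and 12.9 to 21.4 TPM, and Neurod2 48.9 to 61.8, 46.7 to 49.3 and 17.5 to 41.4 TPM. The part of these markers in the results below was not tested.

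The promoters of several members hold the cAMP response element, the 8 letters TGACGTCA bound by CREB-family factors, through which activity induces many peptide genes. They are shown because the genes that carry the element differ in how they moved here. Promoter sequences were given for 32 of the 38 members in RefSeq (GRCm38.p6). In the 250 bases before the start, 5 of these 32 genes hold TGACGTCA, which reads the same on both strands, against 1.77% of 27025 genes with such a window. Its 5-letter core, TGACG or CGTCA on either strand, which the full element also contains, is in 19 of the 32 and in 19.8% of all genes. Starts are those of the RefSeq promoter windows, which for Sst and Cartpt lie inside the full span of the gene, whose annotated end is farther upstream. For Ucn, unlike the other genes shown, the bases after the start were not found in the searched transcripts of the gene. A match is a description of letters and not a site in use. The 5 stretches of 60 bases, 5′ to 3′ on the gene's strand with the element in capitals, are these.
Sst (chr16:23890859-23890918, minus strand, element from 48 bases before the start): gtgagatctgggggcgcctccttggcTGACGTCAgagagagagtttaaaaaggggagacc
Cartpt (chr13:99900762-99900821, minus strand, 112 bases before): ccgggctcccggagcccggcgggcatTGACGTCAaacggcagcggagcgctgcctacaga
Ucn (chr5:31138906-31138965, minus strand, 44 bases before): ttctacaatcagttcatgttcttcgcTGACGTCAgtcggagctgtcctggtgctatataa
Scg2 (chr1:79440061-79440120, minus strand, 68 bases before): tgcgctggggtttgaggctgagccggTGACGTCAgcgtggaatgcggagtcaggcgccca
Chgb (chr2:132781544-132781603, plus strand, 72 bases before): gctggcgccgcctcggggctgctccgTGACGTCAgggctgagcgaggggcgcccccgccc

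All 38 members were found, and the 35 whose 9 libraries averaged 1 TPM or more were tested. The 3 that did not were Kiss1 (kisspeptin, at most 0.609 TPM), Calcb (at most 1.13 TPM) and Nmu (neuromedin U, at most 0.574 TPM). Per transcript, the highest means over all libraries were those of Cck (1572 TPM), Sst (1291 TPM), Scg5 (885 TPM), Npy (541 TPM) and Chgb (249 TPM). The summed level of all 38 was 3675 to 5123 TPM in the young, 5450.4 to 5747 TPM in the aged and 6915 to 6952 TPM in the treated libraries, and the groups did not overlap. That sum was mostly carried by the 14 forebrain peptides, at 1938 to 3141, 3769 to 4063 and 5048 to 5232 TPM. The 6 granins together differed little, at 1648 to 1708, 1583 to 1671 and 1630.3 to 1663 TPM. Of this Scg5 alone was 807 to 864, 854 to 974 and 889 to 927 TPM, so the sum says little about the other granins. Among those Chgb and Scg3 fell and Scg2 and Vgf rose in at least 1 comparison, as given below.

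**Figure D1:**
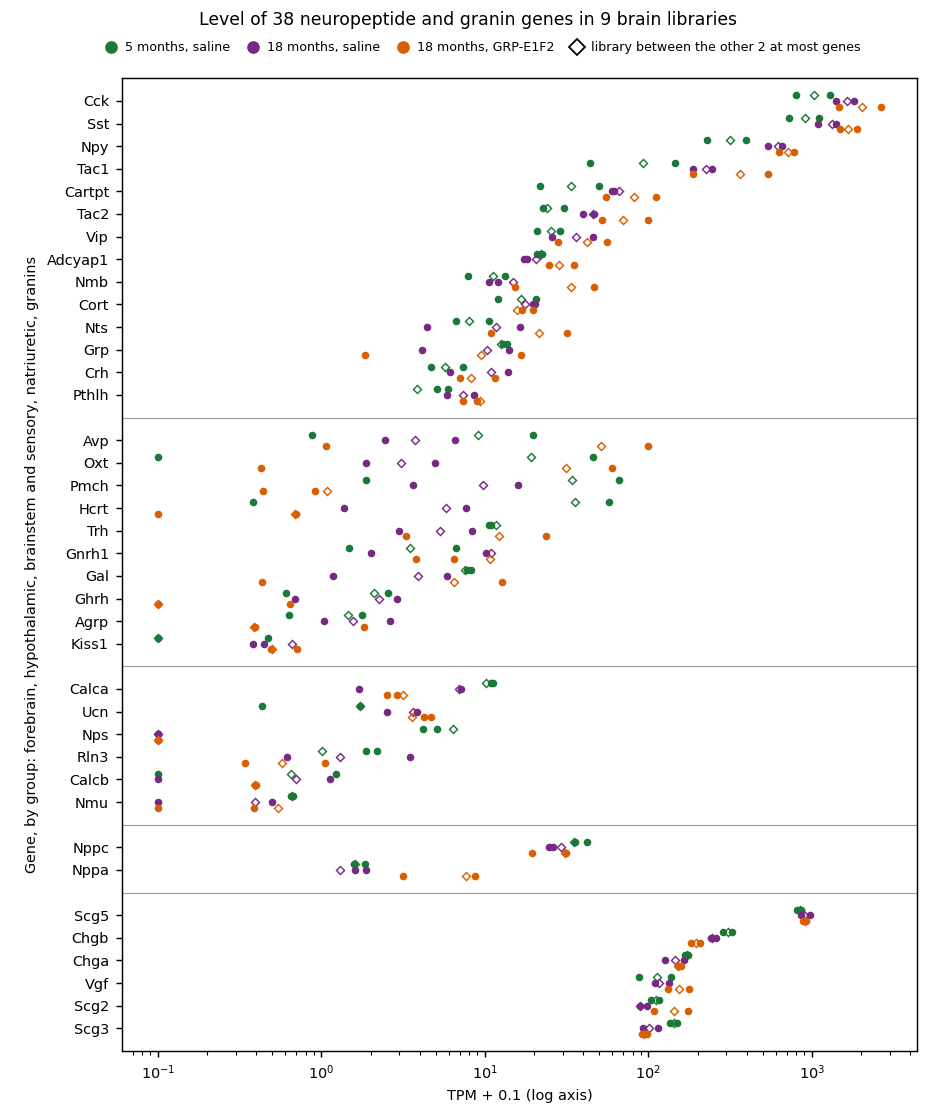
Level of each of the 38 genes in the 9 libraries, in TPM + 0.1 on a log axis, with 1 symbol per library, coloured by group; open diamonds are the libraries that lie between the other 2 of their group at most genes. The granins lie in narrow bands near 100 TPM and above, while the hypothalamic peptides Avp, Oxt, Hcrt and Pmch spread over more than 10-fold within the young group.

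Between aged and young saline mice, 6 of the 35 tested members passed an adjusted p of 0.05 in limma, where 16.7% of all 13301 genes tested did, 5.48% upward and 11.2% downward. Npy, Tac2 and Ucn rose and Nps, Scg3 and Chgb fell with age. The median log2 fold change of the 35 was 0.10, against -0.05 over all genes tested. Groups did not overlap at 16 of the 35, against 41.5% of all genes. With 2 libraries per group only Nps passed, where 0.0226% of all genes did, 0.00752% upward and 0.015% downward, and 6 members had an unadjusted p under 0.05, as did 10.8% of all genes. Leaving out a single library changed the count of 6 to 11 (young library 1), 3 (young library 3), 2 (aged library 2) or 8 (aged library 3). Without treated library 1, 2 or 3 it was 9, 10 or 4, and without young library 2 or aged library 1 it stayed at 6. Over all genes 2217 were called, and 2318, 371, 379 or 2568 without young library 1, young library 3, aged library 2 or aged library 3. The all-gene count was 2626, 2635 or 1172 without treated library 1, 2 or 3. It was 635 without young library 2 and 1330 without aged library 1.

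Between treated and aged saline mice, 6 of the 35 passed, where 20.8% of all genes did, 7.47% upward and 13.4% downward: Tac2, Adcyap1, Nmb, Nppa and Scg2 rose and Chgb fell with GRP-E1F2. The median was 0.22, against -0.02 over all genes, and groups did not overlap at 10 members, against 36.3% of all genes. With 2 libraries per group no member passed in limma, where 1.86% of all genes did, 0.105% upward and 1.76% downward, and 6 had an unadjusted p under 0.05, as did 13.5% of all genes. The count of 6 became 3 without aged library 2 and 3 without treated library 3. It was 4 without young library 3 or aged library 3 and 5 without young library 1 or aged library 1. Without young library 2 or treated library 1 it was 8, and without treated library 2 it stayed at 6. Over all genes 2771 were called, and 1345 without aged library 2 and 1376 without treated library 3. The all-gene count was 2026 without young library 3 and 2242 without aged library 3. It was 2633 without young library 1 and 3060 without aged library 1. Without young library 2, treated library 1 or treated library 2 it was 2726, 2596 or 2572.

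Between treated mice and young saline mice, which differ in both age and treatment and share their libraries with the other comparisons, 20 of the 35 passed, 12 risen and 8 fallen, where 46.6% of all genes did, 17.2% upward and 29.4% downward. Scaling by median of ratios gave 14 and 6, where 3015 of all genes rose and 3074 fell. Quantile normalisation gave 13 and 5, where 3115 of all genes rose and 2978 fell. The median was 0.40, against -0.07 over all genes, and groups did not overlap at 20 members, against 61.4% of all genes. With 2 libraries per group 6 members passed, where 12.9% of all genes did, 3.91% upward and 8.97% downward: Npy, Tac2 and Ucn had risen and Nps, Scg3 and Chgb fallen. An unadjusted p under 0.05 was found for 22 members and 53.9% of all genes with all libraries, and for 16 members and 30.4% of all genes with 2 per group.

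**Figure D2:**
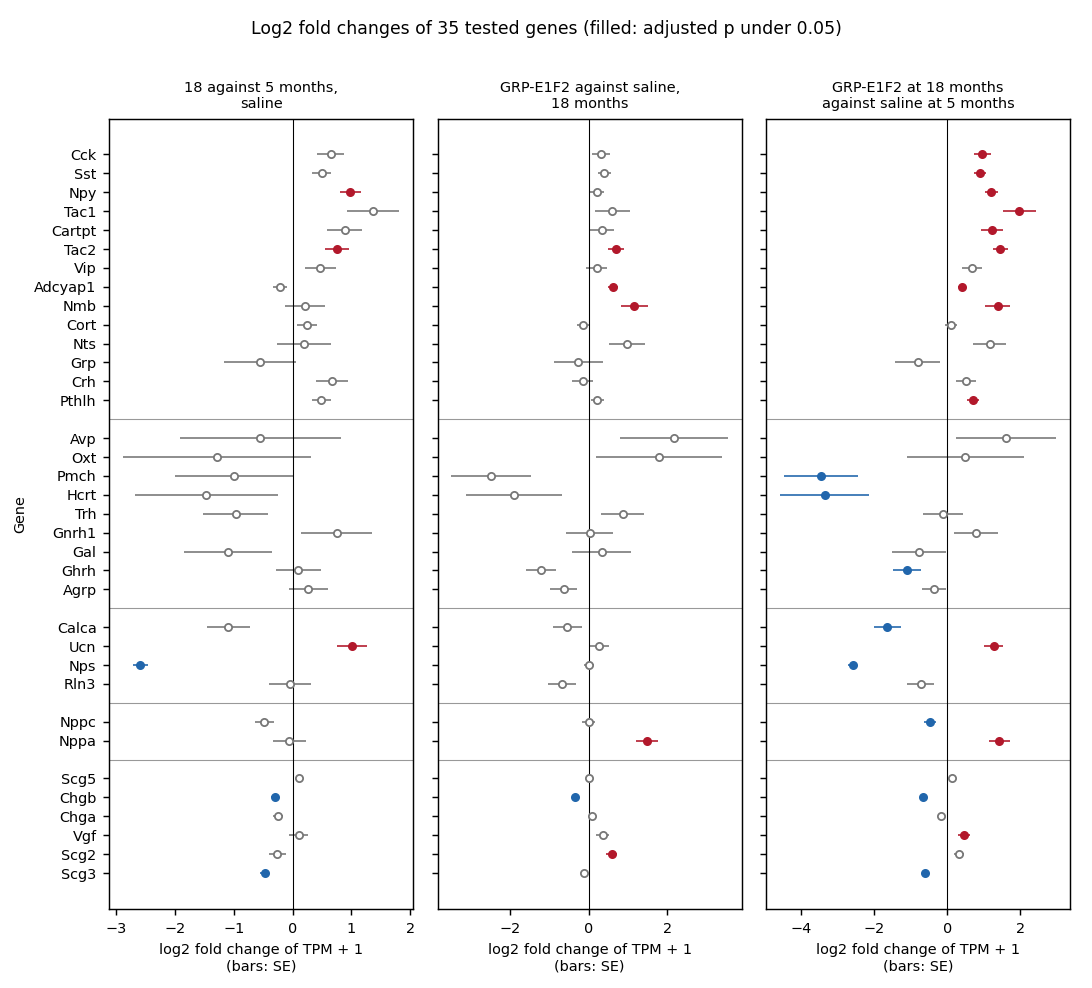
Log2 fold change of TPM + 1 with its standard error for the 35 tested genes, in panels for age, GRP-E1F2 and both together; filled red symbols rose and filled blue symbols fell at an adjusted p under 0.05. Npy, Tac2 and Ucn lie right of 0 and Scg3 and Chgb left of 0 in all 3 panels, and Nps, listed at 0 in both 18-month groups, is filled blue in both panels that include the young group.

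Of the 14 forebrain peptides, 2 rose with age and none fell, where 5.48% of all genes rose and 11.2% fell. Npy encodes neuropeptide Y, an abundant peptide of GABAergic interneurons (chromosome 6, 49822710 to 49829507, GRCm38.p6). It was 393, 228 and 316 TPM in young libraries 1, 2 and 3, 653, 622 and 543 TPM in the aged and 629, 772 and 715 TPM in the treated. Every aged and every treated library was above every young library, and the aged and treated libraries overlapped. The means were 312 ± 82.4, 606 ± 56.7 and 706 ± 71.9 TPM (SD, n = 3), a log2 fold change of 0.98 with age (SE 0.174, adjusted p = 0.0101, and 0.384 with 2 libraries per group). Without aged library 2 the adjusted p with age was 0.0518. With GRP-E1F2 the change was 0.22 (adjusted p = 0.408), and from young to treated 1.20 (adjusted p = 0.000615, and 0.0293 with 2 libraries per group).

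Tac2, the precursor of neurokinin B in the mouse (chromosome 10, 127724478 to 127731768, GRCm38.p6), was 30.4, 22.6 and 24.04 TPM in the young, 39.8, 45.8 and 46.2 TPM in the aged and 52.03, 98.9 and 70.1 TPM in the treated libraries. No groups overlapped, and the treated libraries were the most spread, with library 2 highest. It rose by 0.76 on the log2 scale with age (adjusted p = 0.0365, 0.468 with 2 libraries per group) and by 0.69 with GRP-E1F2 (adjusted p = 0.0425, 0.349 with 2 libraries per group). Both calls were close to the threshold: the age call ended when any 1 aged library, young library 2 or 3, or treated library 3 was left out (adjusted p 0.0626 to 0.123), and the other when any 1 aged library, or library 2 or 3 of the young or treated group, was left out (0.0502 to 0.111). Both also ended without a filter on low values and with the replicate block, and the GRP-E1F2 call in the fit of the 2 groups alone. Its rise from young to treated was 1.45 (adjusted p = 0.000522, 0.0284 with 2 libraries per group).

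Tac1, which encodes the related tachykinins substance P and neurokinin A and is abundant in striatal projection neurons, was 145, 43.9 and 92.5 TPM in the young, 244, 226 and 188 TPM in the aged and 186, 540.3 and 362 TPM in the treated libraries. Its libraries differed more than 3-fold among the young, and its rise of 1.97 passed only from young to treated (adjusted p = 0.0064, 0.089 with 2 libraries per group). The striatal gene sum was 887, 245 and 576 TPM in the young libraries and 655, 1829 and 1243 TPM in the treated, so both were lowest in young library 2 and highest in treated library 2. Cartpt, the precursor of the CART peptides that affect feeding and reward, was 49.98, 21.8 and 33.5 TPM in the young, 59.7, 65.7 and 61.8 TPM in the aged and 55.04, 111 and 81.2 TPM in the treated libraries. It too was lowest in young library 2 and highest in treated library 2, with a rise of 1.23 from young to treated (adjusted p = 0.00851, 0.11 with 2 libraries per group).

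Sst encodes somatostatin, the inhibitory peptide that defines a class of cortical interneurons (chromosome 16, 23889573 to 23891342, GRCm38.p6). Its promoter window holds the element shown above, before a start that lies inside this span. It was 1104, 729 and 909 TPM in the young, 1091, 1324 and 1411 TPM in the aged and 1493, 1885 and 1670.04 TPM in the treated libraries. Young library 1 reached the level of aged library 1, while all treated libraries were above all others. Neither the age change of 0.49 (adjusted p = 0.0606) nor that with GRP-E1F2 of 0.40 (adjusted p = 0.102) passed, and the rise of 0.89 from young to treated did (adjusted p = 0.00171, 0.0525 with 2 libraries per group). Cort, which encodes cortistatin, a close relative of somatostatin that binds the same receptors, was far lower per transcript at 20.4, 11.9 and 16.5 TPM in the young, 20.2, 17.5 and 19.5 TPM in the aged and 16.9, 19.5 and 15.7 TPM in the treated libraries. All 3 groups of Cort overlapped, with a log2 fold change of 0.11 from young to treated (SE 0.164, adjusted p = 0.606).

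Cck, the precursor of cholecystokinin, which pyramidal cells and a class of interneurons make, had the highest level of all members. It was 1299, 802 and 1036 TPM in the young, 1802, 1651 and 1396 TPM in the aged and 2652, 1469 and 2039 TPM in the treated libraries. Every aged library was above every young library, but the age change of 0.65 did not pass (adjusted p = 0.0792). Cck rose by 0.96 from young to treated (adjusted p = 0.00758, 0.108 with 2 libraries per group). Its highest library, treated library 1, was also the highest for the sum of the neocortical excitatory genes, at 1074 TPM, of which Slc17a7 was 782 TPM. Vip, the peptide of another interneuron class, was 28.9, 20.8 and 25.3 TPM in the young, 45.5, 36.04 and 25.5 TPM in the aged and 56.1, 27.7 and 42.3 TPM in the treated libraries, overlapped in all groups and passed in no comparison.

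Adcyap1 and Nmb rose with GRP-E1F2. Adcyap1 encodes PACAP, a peptide that raises cAMP through its receptor Adcyap1r1 (chromosome 17, 93198245 to 93206541, GRCm38.p6). It was 20.7, 22.3 and 22.1 TPM in the young, 17.9, 20.4 and 17.3 TPM in the aged and 35.2, 24.5 and 28.2 TPM in the treated libraries, and no groups overlapped. The aged libraries were the lowest, with a change of -0.22 with age that did not pass (adjusted p = 0.23), and it rose by 0.62 with GRP-E1F2 (SE 0.119, adjusted p = 0.0073, 0.132 with 2 libraries per group). From young to treated the rise was 0.40 (adjusted p = 0.0209, 0.153 with 2 libraries per group), and this call ended without young library 1 or 3 (adjusted p 0.0525 to 0.0601). Nmb, which encodes neuromedin B, a bombesin-like peptide abundant in the olfactory bulb, was 13.1, 7.78 and 11.2 TPM in the young, 12.004, 14.7 and 10.5 TPM in the aged and 15.3, 46.4 and 33.3 TPM in the treated libraries. Treated library 1 was close to the aged libraries and treated library 2 about 3-fold above it. The rise with GRP-E1F2 was 1.17 (adjusted p = 0.0424, 0.345 with 2 libraries per group) and ended when any 1 aged library, young library 1 or 3, or treated library 2 or 3 was left out (0.0516 to 0.137), without a filter on low values, with the replicate block and in the fit of these 2 groups alone. Nmb also rose from young to treated, by 1.38 (adjusted p = 0.00998, 0.115 with 2 libraries per group). The sum of the 8 olfactory bulb and nerve genes was 43.96, 163 and 108 TPM in the treated libraries, in the same order as Nmb. It was 30.9 to 33.6 TPM in the young and 74.5 to 126 TPM in the aged libraries, where Nmb was at most 14.7 TPM. The genes in this sum differed: with GRP-E1F2 2 of the 7 tested rose and 1 fell, where 7.47% and 13.4% of all genes did. Doc2g was 9.78 to 11.2 TPM in the aged and 12.2 to 47.5 TPM in the treated libraries, and Sp8 0.415 to 0.765 and 2.51 to 7.57 TPM. Omp was 16.04 to 30.6 and 5.19 to 22.8 TPM, and S100a5 17.7 to 54.9 and 4.78 to 48.1 TPM. The part of these genes in the result was not tested.

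**Figure D3:**
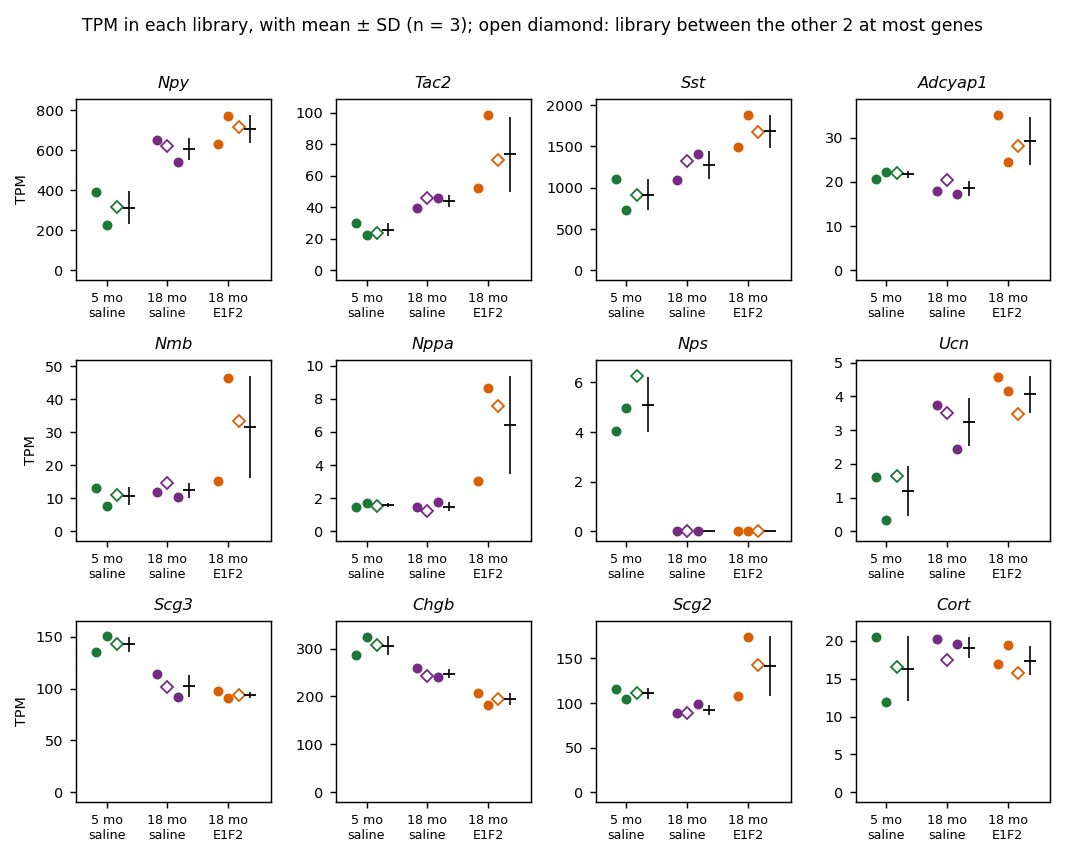
TPM of 12 genes in each library, with the group mean and SD (n = 3) beside the points; open diamonds are the libraries that lie between the other 2 of their group at most genes. Npy steps up between young and aged libraries, Adcyap1, Nmb, Nppa and Scg2 have their highest mean in the treated group, Nps is listed at 0 in all 18-month libraries, and Scg3 and Chgb are highest in the young group.

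The other forebrain members had lower levels. Grp, gastrin-releasing peptide, which binds a receptor related to that of neuromedin B, ran from 1.74 TPM in treated library 2 to 16.5 TPM in treated library 1, so that its highest and lowest values lay in the same group. Nts, neurotensin, was 10.5, 6.56 and 7.91 TPM in the young, 4.34, 11.5 and 16.3 TPM in the aged and 10.9, 31.5 and 21.4 TPM in the treated libraries, and Crh, corticotropin-releasing hormone, ran at 4.59 to 7.23, 6.04 to 13.7 and 6.99 to 11.4 TPM. None of these 3 passed in any comparison. Pthlh, parathyroid hormone-related protein, was 5.84, 4.96 and 3.74 TPM in the young, 8.49, 7.201 and 5.8004 TPM in the aged and 7.26, 8.81 and 9.28 TPM in the treated libraries, and rose only from young to treated (0.70, adjusted p = 0.00671, 0.153 with 2 libraries per group).

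The hypothalamic peptides differed widely between libraries of 1 group. Of the 9 tested, the highest library was at least 2-fold above the lowest (on TPM + 1) at 6 in the young, 8 in the aged and 6 in the treated group, where 1.33%, 1.53% and 2.67% of all genes were. None of the 9 passed with age or with GRP-E1F2, where 16.7% and 20.8% of all genes did, and an unadjusted p under 0.05 was found for none with age and 2 with GRP-E1F2, against 34.3% and 35.5% of all genes. Oxt and Avp encode oxytocin and vasopressin, hormones of the magnocellular neurons, and lie side by side on chromosome 2 (Oxt 130574519 to 130577054, Avp 130580620 to 130582588, GRCm38.p6). They share a near-identical stretch, so reads could have been split between them in an unknown way. Oxt was 45.7, 0 and 18.9 TPM in young libraries 1, 2 and 3, 1.76, 2.97 and 4.86 TPM in the aged and 0.329, 59.98 and 31.2 TPM in the treated. Avp was 19.7, 0.773 and 8.92 TPM in the young, 2.37, 3.63 and 6.45 TPM in the aged and 0.971, 99.7 and 51.3 TPM in the treated libraries. Both were thus highest in young library 1 and treated library 2 of their groups and near 0 in young library 2 and treated library 1, and the aged libraries were all low.

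Hcrt, the precursor of the wake-promoting orexins, and Pmch, that of melanin-concentrating hormone, are made in separate neurons of the lateral hypothalamus. Hcrt was 57.6, 0.283 and 35.4 TPM in the young, 1.27, 5.67 and 7.52 TPM in the aged and 0.596, 0 and 0.587 TPM in the treated libraries. Pmch was 65.7, 1.77 and 33.9 TPM in the young, 3.52, 9.71 and 15.9 TPM in the aged and 0.337, 0.8104 and 0.989 TPM in the treated libraries. Both were high in young libraries 1 and 3 and at most 0.989 TPM in every treated library, including treated library 2, where Avp and Oxt were highest. From young to treated Hcrt fell by 3.36 (adjusted p = 0.0484) and Pmch fell by 3.46 on the log2 scale (adjusted p = 0.0196), or 0.293 and 0.178 with 2 libraries per group. The Pmch call ended without young library 1 or 3 (0.0606 to 0.0715), and the Hcrt call ended in 8 of the 9 fits without 1 library, all but that without young library 2 (0.056 to 0.156). The Hcrt call also ended with a pseudocount of 0.1, without a filter, under median-of-ratios scaling, quantile normalisation and robust eBayes, and in the fit of these 2 groups alone.

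**Figure D4:**
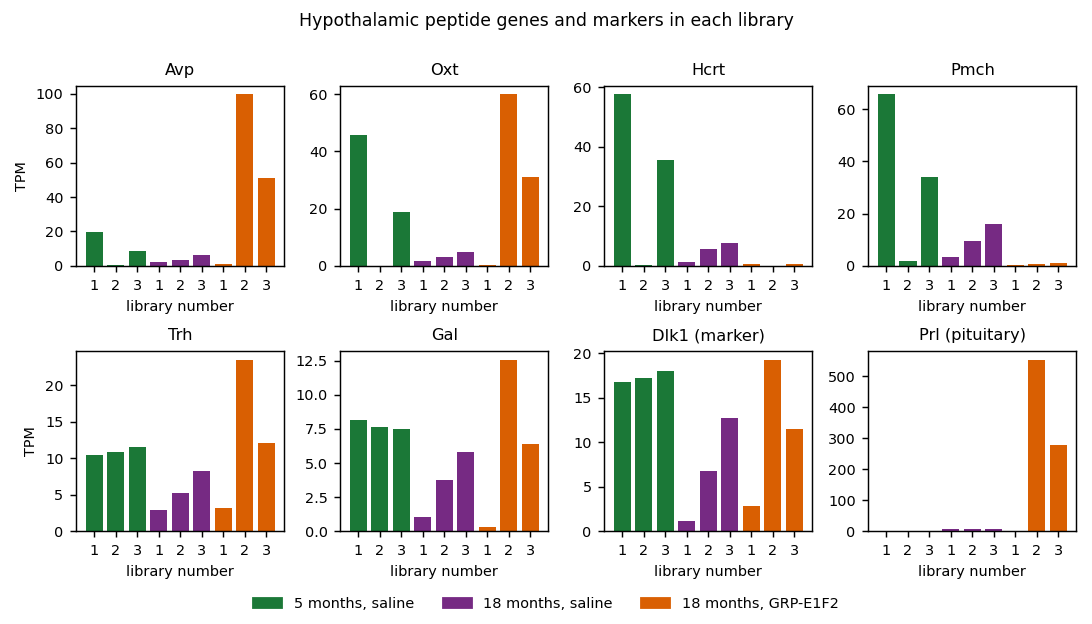
TPM of 6 hypothalamic peptide genes, the marker Dlk1 and the pituitary hormone gene Prl in each of the 9 libraries, as bars from 0, coloured by group. Avp and Oxt are high in young library 1 and treated libraries 2 and 3, Hcrt and Pmch highest in young libraries 1 and 3, and Prl in treated libraries 2 and 3.

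Trh, thyrotropin-releasing hormone, and Gal, galanin, were even among the young and uneven among the other groups. Trh was 10.5, 10.8 and 11.5 TPM in the young, 2.89, 5.23 and 8.29 TPM in the aged and 3.21, 23.5 and 12.1 TPM in the treated libraries. Gal was 8.14, 7.65 and 7.49 TPM in the young, 1.08, 3.78 and 5.79 TPM in the aged and 0.336, 12.6 and 6.39 TPM in the treated libraries. Every aged library was below every young library for both, but neither passed (adjusted p = 0.244 for Trh and 0.328 for Gal). Gnrh1, gonadotropin-releasing hormone, ran at 1.39 to 6.604, 1.905 to 10.8 and 3.67 to 10.7 TPM. Agrp, the hunger-promoting agouti-related peptide, was at most 2.54 TPM. Ghrh, growth hormone-releasing hormone, was 2.44, 0.506 and 1.99 TPM in the young, 0.587, 2.16 and 2.79 TPM in the aged and 0, 0.539 and 0 TPM in the treated libraries, listed at 0 in treated libraries 1 and 3. From young to treated it fell by 1.11 on the log2 scale (adjusted p = 0.0404, 0.313 with 2 libraries per group), a call that ended without young library 1 or 3, aged library 2 or treated library 1 or 3 (0.0558 to 0.125), with a pseudocount of 5, without a filter, under quantile normalisation and with the replicate block.

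Of 12 hypothalamic marker genes 3 had a mean of at least 1 TPM, Nnat, Dlk1 and Baiap3, and these were even among the young libraries and uneven among the aged and the treated. Among these Dlk1, abundant in hypothalamic neurons and in the pituitary, was 16.8, 17.2 and 17.98 TPM in the young, 1.17, 6.75 and 12.8 TPM in the aged and 2.81, 19.3 and 11.5 TPM in the treated libraries. The factor Nkx2-1 was 1.04, 0.0422 and 0.743 TPM in the young, 0.483, 0.642 and 1.04 TPM in the aged and 0.612, 2.58 and 1.504 TPM in the treated libraries, in the same order as Avp and Oxt within each group. Otp, another hypothalamic factor, was at most 1.63 TPM, and Sim1 and Nkx2-4 were at most 0.0876 and 0.0487 TPM. The summed level of 11 pituitary genes was 5.904 to 6.36 TPM in the young, 22.2 to 25.8 TPM in the aged, and 4.398, 884 and 448 TPM in the treated libraries, while Pou1f1, a pituitary factor, was at most 0.173 TPM and Tbx19 was listed at 0 everywhere. The part of tissue from these regions in the values of Avp, Oxt, Trh, Gal, Hcrt and Pmch was not tested.

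Nps encodes neuropeptide S, a wake-promoting peptide of small neuron groups beside the locus coeruleus and in the parabrachial area (chromosome 7, 135268619 to 135272942, GRCm38.p6). It was 4.06, 4.97 and 6.28 TPM in the young libraries and listed at 0 in all 3 aged and all 3 treated libraries. Nps fell with age (adjusted p = 4.23e-05, 0.025 with 2 libraries per group) and from young to treated (adjusted p = 1.51e-06, 0.001 with 2 libraries per group), and no fold is given against libraries listed at 0. Its mean of 1.7 TPM over the 9 libraries came from the young alone, so it was tested only through the group where it was high. Groups listed at 0 have no spread, which lowers the standard error pooled over groups behind these p-values. Among 14 brainstem and hindbrain markers the sum was 53.1 to 73.1 TPM in the young, 7.499 to 26.1 TPM in the aged and 5.69 to 21.1 TPM in the treated libraries. Most of the treated sum was the marker Th, at 4.76, 20.2 and 12.95 TPM of 5.69, 21.1 and 14.2 TPM. Th was 8.24 to 10.8 TPM in the young and 5.45 to 11.7 TPM in the aged libraries, both within the range of the treated. Hoxb5 was 10.96 to 13.7 TPM in the young and 0 to 1.26 TPM in the aged libraries, and was listed at 0 in the treated. The part of these markers in the fall of Nps was not tested. Dbh, of noradrenergic neurons, was 0.501, 0.647 and 0.565 TPM in the young, 0.06898, 0.725 and 1.34 TPM in the aged and 0.183, 0.384 and 0.334 TPM in the treated libraries, so that the young libraries lay within the range of the aged and above the treated.

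Calca, which encodes calcitonin and the neuropeptide CGRP, was 10.8, 11.2 and 10.1 TPM in the young, 1.599, 6.83 and 7.01 TPM in the aged and 2.79, 2.44 and 3.06 TPM in the treated libraries. Every young library was above every other library. The age change of -1.10 did not pass (adjusted p = 0.0683), and from young to treated Calca fell by 1.64 on the log2 scale (adjusted p = 0.00565, 0.0556 with 2 libraries per group). Calcb, its close copy, was listed at 0 to 1.13 TPM in the young libraries, and reads could have been split between the 2 genes. Rln3, relaxin-3 of the nucleus incertus, ran at 0.905 to 2.08, 0.516 to 3.395 and 0.243 to 0.9496 TPM and passed in no comparison.

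Ucn, urocortin, a relative of corticotropin-releasing hormone made in a midbrain nucleus, went the other way. It was 1.61, 0.332 and 1.63 TPM in the young, 3.75, 3.52 and 2.43 TPM in the aged and 4.57, 4.15 and 3.46 TPM in the treated libraries. All aged and treated libraries were above all young ones, at levels of a few TPM. Ucn rose by 1.00 with age (SE 0.253, adjusted p = 0.0311, 0.384 with 2 libraries per group), a call that ended without young library 3, aged library 1 or 2 or treated library 3 (0.0514 to 0.109), with a pseudocount of 0.1 and in the fit of these 2 groups alone. Ucn also rose from young to treated, by 1.27 (adjusted p = 0.00327, 0.0315 with 2 libraries per group).

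Of the 2 natriuretic peptide genes, 1 rose with GRP-E1F2, as did 7.47% of all genes. Nppa, which encodes atrial natriuretic peptide (chromosome 4, 148000722 to 148002074, GRCm38.p6), was 1.49, 1.74 and 1.51 TPM in the young, 1.499, 1.2004 and 1.78 TPM in the aged and 3.05, 8.66 and 7.57 TPM in the treated libraries. All treated libraries were above all others, and treated library 1 was the lowest of them. It rose by 1.48 with GRP-E1F2 (SE 0.278, adjusted p = 0.00659, 0.204 with 2 libraries per group) and by 1.43 from young to treated (adjusted p = 0.00287, 0.0742 with 2 libraries per group). Nppc, C-type natriuretic peptide, the main natriuretic peptide of brain, was 35.6, 41.9 and 35.03 TPM in the young, 24.5, 29.1 and 26.1 TPM in the aged and 31.3, 19.4 and 30.9 TPM in the treated libraries. Nppc was highest in the young libraries, but its change of -0.48 with age did not pass (adjusted p = 0.0777). From young to treated it fell by 0.48 on the log2 scale (adjusted p = 0.0422, 0.108 with 2 libraries per group), a call that ended in 7 of the 9 fits without 1 library, all but those without treated library 1 or 3 (0.0522 to 0.135). It also ended under median-of-ratios scaling and quantile normalisation, without a filter, with the replicate block and in the fit of these 2 groups alone.

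Of the 6 granins, 2 fell with age, where 11.2% of all genes fell. With GRP-E1F2 1 granin rose and 1 fell, where 7.47% of all genes rose and 13.4% fell. Chgb, chromogranin B, a core protein of dense-core vesicles (chromosome 2, 132781642 to 132795079, GRCm38.p6), was 287, 325 and 307 TPM in the young, 259, 244 and 241 TPM in the aged and 207, 182 and 194 TPM in the treated libraries. No groups overlapped, and the order was young, aged, treated from high to low. The means were 306 ± 18.95, 248 ± 9.596 and 194 ± 12.7 TPM (SD, n = 3). Chgb fell by 0.30 with age (adjusted p = 0.021, 0.465 with 2 libraries per group) and by 0.35 with GRP-E1F2 (adjusted p = 0.00757, 0.258 with 2 libraries per group). From young to treated it fell by 0.65 (adjusted p = 9.99e-05, 0.0206 with 2 libraries per group). The age call ended without young library 2 or 3 or aged library 2 (0.0782 to 0.0884).

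Scg3, secretogranin III, which binds chromogranins to the vesicle membrane (chromosome 9, 75643366 to 75685959, GRCm38.p6), was 136, 150.3 and 143 TPM in the young, 114, 102 and 92.3 TPM in the aged and 97.4, 90.9 and 93.7 TPM in the treated libraries. Every young library was above all others, and aged and treated libraries overlapped. It fell by 0.48 with age (SE 0.0783, adjusted p = 0.00813, 0.384 with 2 libraries per group). The fall from young to treated was -0.60 (adjusted p = 0.000355, 0.035 with 2 libraries per group), and with GRP-E1F2 its change was -0.12 (adjusted p = 0.313).

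Scg2, secretogranin II, the precursor of secretoneurin, carries the same promoter letters as Chgb and was 116, 104 and 111 TPM in the young, 89.2, 89.3 and 98.6 TPM in the aged and 107, 174 and 143 TPM in the treated libraries. It was lowest in the aged libraries and highest in treated library 2, and rose by 0.58 with GRP-E1F2 (adjusted p = 0.0222, 0.349 with 2 libraries per group). That call ended without aged library 1 or 2 or treated library 3 (0.052 to 0.0818) and in the fit of these 2 groups alone. Chgb fell in the same comparison, so these 2 carriers of the element moved in opposite directions. Sst and Cartpt rose only from young to treated, and Ucn rose with age and from young to treated.

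Vgf, an activity- and neurotrophin-induced granin, was 137, 87.8 and 113 TPM in the young, 109, 116 and 133 TPM in the aged and 178, 132 and 154 TPM in the treated libraries. It rose only from young to treated (0.47, adjusted p = 0.0411, 0.236 with 2 libraries per group), where the groups overlapped and the call ended without young library 2 or 3, aged library 2 or treated library 1 or 3 (0.0609 to 0.133), without a filter and in the fit of these 2 groups alone. Chga, chromogranin A, was 169, 174 and 173 TPM in the young, 126, 146 and 164 TPM in the aged and 152, 157 and 153 TPM in the treated libraries, with the young highest and no call (adjusted p = 0.0753 with age). Scg5, the convertase chaperone 7B2, was the most abundant granin and was 864, 807 and 843 TPM in the young, 974, 898 and 854 TPM in the aged and 889, 927 and 913 TPM in the treated libraries. Its change of 0.12 from young to treated did not pass (SE 0.0602, adjusted p = 0.134).

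Of 19 genes that process peptides or serve their vesicles, 1 rose and 1 fell with age, 6 rose and 2 fell with GRP-E1F2, and 6 rose and 4 fell from young to treated, where 16.7%, 20.8% and 46.6% of all genes were called. With 2 libraries per group none, none and 5 passed, where 0.0226%, 1.86% and 12.9% of all genes did. Pcsk2, the convertase that cuts most neuropeptide precursors, was 94.1, 64.5 and 79.8 TPM in the young, 126, 116 and 109 TPM in the aged and 176, 123 and 149 TPM in the treated libraries, and rose with age (0.56, adjusted p = 0.0383, 0.442 with 2 libraries per group). Pam, the enzyme that amidates peptide ends, was 39.4, 30.8 and 35.3 TPM in the young, 40.5, 35.2 and 34.1 TPM in the aged and 56.1, 53.8 and 56.4 TPM in the treated libraries, and rose with GRP-E1F2 (0.59, adjusted p = 0.00313, 0.175 with 2 libraries per group). Ptprn and Ptprn2, membrane proteins of dense-core vesicles, rose with GRP-E1F2 by 0.50 and 0.41 (adjusted p = 0.0166 and 0.0384, 0.307 and 0.446 with 2 libraries per group). Qpct, which closes glutamine ends into rings, rose by 0.58 and Cadps, which primes dense-core vesicles, by 0.22 (adjusted p = 0.0178 and 0.0309, 0.292 and 0.517 with 2 libraries per group). Between young and treated mice the 5 that passed with 2 libraries per group were Pcsk6, Cadps2, Ptprn, Pam and Pcsk2 (adjusted p = 0.00613, 0.0191, 0.0334, 0.0412 and 0.0491).

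The convertase Pcsk6 and the vesicle-priming factor Cadps2 fell. Pcsk6 was 12.9, 17.5 and 14.7 TPM in the young, 8.15, 9.05 and 10.1 TPM in the aged and 4.81, 3.69 and 3.91 TPM in the treated libraries, with no overlap between groups. Its fall was -0.66 with age (adjusted p = 0.0134) and -0.97 with GRP-E1F2 (adjusted p = 0.00104), or 0.384 and 0.0878 with 2 libraries per group. Cadps2 was 30.7, 38.4 and 33.9 TPM in the young, 30.6, 24.9 and 22.7 TPM in the aged and 17.3, 12.5 and 15.1 TPM in the treated libraries, and fell with GRP-E1F2 (-0.76, adjusted p = 0.00589, 0.156 with 2 libraries per group). Cadps2 is abundant in cerebellar granule cells, whose gene Gabra6 was 146 to 219.9, 92.8 to 102 and 0.886 to 1.59 TPM, and its part in these falls was not tested.

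Among 56 receptors and binding proteins of these peptides 37 were tested. With age 4 rose and 1 fell, with GRP-E1F2 9 rose and 5 fell, and from young to treated 17 rose and 7 fell, against 16.7%, 20.8% and 46.6% of all genes called. With 2 libraries per group none, 1 and 8 passed, against 0.0226%, 1.86% and 12.9% of all genes. Cckbr, the main cholecystokinin receptor of brain, was 11.4, 7.96 and 9.66 TPM in the young, 18.04, 18.1 and 17.2 TPM in the aged and 36.7, 25.1 and 31.3 TPM in the treated libraries. No groups overlapped, and Cckbr rose by 0.83 with age (adjusted p = 0.00972, 0.384 with 2 libraries per group) and by 0.76 with GRP-E1F2 (adjusted p = 0.0072, 0.195 with 2 libraries per group). Npy5r, a receptor of neuropeptide Y, was 1.27, 0.854 and 0.769 TPM in the young, 2.03, 1.67 and 1.59 TPM in the aged and 2.57, 2.82 and 3.098 TPM in the treated libraries, and rose in both (adjusted p = 0.0258 and 0.0226, 0.458 and 0.42 with 2 libraries per group). Trhr2 and Mchr1, receptors of thyrotropin-releasing hormone and melanin-concentrating hormone, rose with age by 0.71 and 0.72 (adjusted p = 0.0272 and 0.0459, 0.418 and 0.461 with 2 libraries per group), and Ntsr2, the neurotensin receptor of astrocytes, fell by 0.28 (adjusted p = 0.0297, 0.521 with 2 libraries per group).

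Receptors of neuromedin B and PACAP rose with GRP-E1F2. Nmbr, the neuromedin B receptor, was 1.304, 1.202 and 1.39 TPM in the young, 0.907, 1.19 and 1.62 TPM in the aged and 3.64, 3.44 and 2.9005 TPM in the treated libraries (0.96, adjusted p = 0.00104, 0.068 with 2 libraries per group). Adcyap1r1, the PACAP receptor, was 25.9, 24.8 and 26.6 TPM in the young, 17.7, 20.9 and 23.6 TPM in the aged and 28.5, 30.7 and 29.9 TPM in the treated libraries (0.51, adjusted p = 0.0059, 0.204 with 2 libraries per group). Npy1r, another receptor of neuropeptide Y, rose by 0.53 (adjusted p = 0.00463, 0.222 with 2 libraries per group). Crhr1, the receptor of corticotropin-releasing hormone and urocortin, was 26.9, 29.5 and 26.9 TPM in the young, 24.7, 25.4 and 24.01 TPM in the aged and 13.6, 14.9 and 12.5 TPM in the treated libraries. It fell by 0.81 with GRP-E1F2 (adjusted p = 0.000126) and was the 1 receptor that also passed with 2 libraries per group (0.0349). Crhr1 is abundant in the cerebellum, whose gene sum was also lowest in the treated libraries, and its part in the fall was not tested. Npr2, the receptor of C-type natriuretic peptide, fell by 0.37 (adjusted p = 0.00589, 0.315 with 2 libraries per group). Npr1, the receptor of atrial natriuretic peptide, fell by 0.87 while Nppa rose (adjusted p = 0.00863, 0.208 with 2 libraries per group). Between young and treated mice the smallest p-values among the receptors were those of Crhr1 (-0.98), Cckbr (1.58), Npy5r (0.97), Npr2 (-0.55), Nmbr (0.91) and Npy1r (0.63), given as log2 fold changes, and all 6 also passed with 2 libraries per group.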

How the data were processed

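RNA sequencing of 9 brain libraries was analysed, 3 per group. Random-primed NEBNext Ultra II libraries were prepared, per the labels' protocols. The genome build mm10 and the tools GATK, HISAT2, Picard and SAMtools (0.1.18) are named per the submitters' processing notes. The deposited values are TPM, computed by the authors per gene and library; the sources used here do not give the tool, the annotation or the treatment of strand and shared reads. TPM keeps no depth, so depth is unknown and no counting interval is given. Positions are from RefSeq (GRCm38.p6, the build also called mm10).

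Values were analysed as log2(TPM + 1), which understates changes of low genes. Genes averaging 1 TPM or more, 13301 in all, entered a limma fit (version 3.58.1, R 4.3.3; 3 groups in 1 model, eBayes with trend, two-sided, Benjamini-Hochberg adjusted over all genes tested). Genes under an adjusted p of 0.05 are said to have risen or fallen. All fold changes use this scale. With 3 against 3 libraries, groups "do not overlap" when every library of one is above every library of the other. The fit was tested on simulated data. Members given in full were those called in any comparison or with a mean of at least 20 TPM in a group; of the receptor and processing lists, up to 6 per comparison with the smallest p were named. Npr1 and the markers given beside a result were picked with their values known. The members and lists were chosen with earlier results of these data known. Of the members, Pmch and Kiss1 overlap the protein-coding genes Parpbp and Golt1a, and several others overlap lncRNA genes; reads of such pairs cannot be told apart without strand. Figures were drawn with matplotlib 3.10.9 in Python 3.11.15.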

Additional observations from a re-analysis of the deposited data

How the results depend on the processing

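Alternatives were pseudocounts of 0.1 and 5 TPM, no filter, a 5 TPM filter, quantile normalisation, median-of-ratios scaling, robust eBayes, the library number as a block, fits restricted to the 2 groups compared, leaving out each library and 2 libraries per group. None of the 32 calls on members reversed its direction under any of these. Of the 32, 25 ended with 2 libraries per group, 7 without a filter, 7 in fits restricted to the 2 groups compared and 5 with the replicate block; 11 ended without young library 3 and 11 without aged library 2. Settings that leave libraries out fit fewer samples, and that with 2 libraries per group also keeps the libraries that lay farther apart. For the others the cause was not tested. With 2 libraries per group the members called were 1 with age, 0 with GRP-E1F2 and 6 from young to treated, and all genes called were 3, 248 and 1713. Leaving out 1 library gave 2 to 11 members with age, 3 to 8 with GRP-E1F2 and 14 to 21 from young to treated. Over all genes it gave 371 to 2635, 1345 to 3060 and 4737 to 6635. Of all genes, 729 rose and 1488 fell with age, against 925 and 1025 under median-of-ratios scaling; with GRP-E1F2 994 and 1777, against 1466 and 1470 under quantile normalisation; and from young to treated 2294 and 3910, against 3115 and 2978. With the replicate block 6, 4 and 19 members were called, and 2055, 2589 and 5944 of all genes. Deviations of same-numbered libraries of different groups correlated at -0.06 to 0.13 across genes, against -0.13 to 0.12 for differently numbered ones. Young library 3, aged library 2 and treated library 3 had intermediate values at most of the genes compared, and their numbers differ. These correlations therefore cannot decide whether equal numbers mark paired libraries. Depth is unknown, so how far it limits the low genes could not be given.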

Other observations

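Ratios of pairs of genes within a library do not depend on how the library was scaled. The pairs were chosen after the values were seen, and their ratios are given as descriptions. Sst was 53.9997 to 61.1 times Cort in the young libraries, 54.02 to 75.6 times in the aged and 88.4 to 106 times in the treated, where all treated libraries were above all others. Tac1 stood at 0.194 to 0.201 of Ppp1r1b, a phosphoprotein gene of striatal projection neurons, in the young libraries, although both genes differed more than 3-fold among them. In aged libraries it was 0.241 to 0.273 and in treated libraries 0.368 to 0.379, with no overlap between groups. Scg2 was 0.321 to 0.405 of Chgb in young, 0.345 to 0.409 in aged and 0.518 to 0.955 in treated libraries. Vgf was 0.2702 to 0.479, 0.423 to 0.552 and 0.727 to 0.858 of Chgb. Tac2 was 0.0799 to 0.109, 0.142 to 0.158 and 0.193 to 0.213 of Gad1, an enzyme of GABA synthesis, and these groups did not overlap. Chgb was 0.0924 to 0.0992, 0.0724 to 0.0837 and 0.065 to 0.0743 of Snap25, so that aged and treated libraries overlapped. Against Scg5 it was 0.332 to 0.403, 0.266 to 0.282 and 0.196 to 0.233, with no overlap. Aged and treated libraries also overlapped in the ratios of Scg3 to Snap25, Npy and Sst to Gad1, and Cartpt to Ppp1r1b. In Sst to Gad1 the young also overlapped the aged libraries, at 2.58 to 3.96 against 3.9 to 4.83. In Cartpt to Ppp1r1b all 3 groups overlapped, at 0.0695 to 0.0974, 0.0589 to 0.0895 and 0.0778 to 0.109. Oxt was 2.32 and 2.12 times Avp in young libraries 1 and 3, but 0.745 to 0.819 of Avp in the aged and 0.339 to 0.609 of it in the treated libraries. In young library 2 Oxt was listed at 0 and Avp was 0.773 TPM. With this ratio of 0 the range of the young covers both other groups.

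Ghrhr, the receptor of growth hormone-releasing hormone, was 145 to 211 TPM in the 9 libraries, while its ligand gene Ghrh was at most 2.79 TPM. Ramp1, a partner of the CGRP receptor, was 198 to 244 TPM, while its receptor partner Calcrl was at most 1.46 TPM. Both were singled out after their values were seen.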
